A study of Mus musculus with 4 samples.

Results

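The diversity (D) and constant (C) segments of the T cell receptor beta chain were examined by the J cluster to which they were joined. Members were TRBD1, TRBD2, TRBC1 and TRBC2 as named in productive beta-chain (TRB) contigs of called cells, where a contig is a receptor transcript assembled from the reads of 1 cell barcode. A contig was taken when its table flagged it as in a cell, high confidence, full length and productive. This gave 13709 TRB contigs of 71826 contigs of any chain and barcode in the 4 tables. TRBD1 was named in 2040 of them, TRBD2 in 1002 and no D in 10667, while TRBC1 was named in 4486, TRBC2 in 9177 and no C in 46. Contigs of a library with the same V, J and CDR3 nucleotide sequence were counted as 1 rearrangement, and 8562 such distinct rearrangements were the main unit. They held 1338 with TRBD1, 677 with TRBD2, 6547 with no D, 2827 with TRBC1, 5703 with TRBC2 and 32 with no C.

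Receptors were sequenced cell by cell from islets of the pancreas of NOD mice, a strain prone to autoimmune diabetes, with 2 libraries labelled NOD (genotype WT) and 2 labelled Tet2KO NOD (genotype KO). Tet2 encodes an enzyme that oxidises methylcytosine in DNA, and its null allele was brought from a B6 background into NOD by backcrossing for over 14 generations. Islets of 4 to 6 mice per genotype were pooled, the mice were NOD in both groups, and no drug treatment is named. The design text gives 10 to 13 weeks as an age, while the protocol dates the harvest by those weeks from a step it calls BTM and mentions marrow donors, so transplantation status was not settled.

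The 4 libraries held 7076 (NOD 1), 2962 (NOD 2), 1975 (Tet2KO NOD 1) and 1696 (Tet2KO NOD 2) of the TRB contigs and 4336, 1997, 1071 and 1158 distinct rearrangements. Reads per library over all contigs ran from 85137263 to 220516119, and the median TRB contig rested on 10 to 13 UMIs (unique molecular identifiers, which count captured molecules). Of 12977 barcodes with a TRB contig, 79 occurred in over 1 library, and 1304 contigs came from cells with over 1 TRB. Replicates are pools of mice, so every permutation and sign-flip p-value below measures the spread between these pools only. The p-values of edgeR and DESeq2 come from models that combine counting error with an estimated spread. Every interval covers counting error only. No expression values were used, so the labelled tissue was not checked against marker genes.

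The beta chain is assembled in developing T cells by joining a D segment to a J segment and then a V segment to the joined pair, with bases trimmed from and added to each end. The locus carries a pair of D-J-C blocks in tandem, so that TRBD1 can join J segments of either block by deletion, while TRBD2 lies downstream of the J1 cluster. The D segment and the added bases form the centre of CDR3, the loop that contacts peptide, and the C segment, which anchors the chain and meets the CD3 signalling proteins, is joined to the J segment by RNA splicing.

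In the GRCm38 build the segments lie on the plus strand of chromosome 6. TRBD1 occupies chr6:41533201-41533212 and is followed after 651 bases by TRBJ1-1, the most upstream J segment of the J1 cluster. TRBC1 occupies chr6:41538218-41539881. TRBD2 occupies chr6:41542163-41542176, which is 6556 bases beyond TRBJ1-6, 2281 bases beyond TRBC1 and 577 bases ahead of TRBJ2-1. TRBC2, at chr6:41546730-41548352, lies 2873 bases beyond TRBJ2-7. The germline D segments, read from that build, are shown because every D call rests on telling them apart, with the first base at which they differ (position 6) in capitals:
TRBD1: gggacAgggggc
TRBD2: gggacTgggggggc
They have 12 and 14 bases, begin with the same 5 bases and share a run of G. The build derives from another strain, and NOD alleles can differ from it.

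The CDR3 sequences below carry the calls that the results turn on. In each, the longest exact match to a germline D in the bases between the V and J germline ends is in capitals, and cells were summed over libraries. The first pair are the rearrangements with the most cells among those of the J1 cluster named TRBD1, with 39 cells in NOD 1 for the former and 22 cells for the latter, 21 of them in Tet2KO NOD 2 and 1 in NOD 2:
TRBV20 to TRBJ1-5: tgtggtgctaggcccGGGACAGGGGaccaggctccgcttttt
TRBV31 to TRBJ1-1: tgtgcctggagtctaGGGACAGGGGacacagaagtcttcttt
The next pair held the most cells among J2 rearrangements named TRBD1, with 61 cells in NOD 2 and 42 cells in NOD 1:
TRBV16 to TRBJ2-1: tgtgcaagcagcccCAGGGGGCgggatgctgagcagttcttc
TRBV12-2 to TRBJ2-5: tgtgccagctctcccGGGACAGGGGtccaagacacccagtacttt
The pair of J2 rearrangements named TRBD2 with the most cells had 41 cells, 40 of them in NOD 1 and 1 in Tet2KO NOD 1, and 33 cells, which were in Tet2KO NOD 1:
TRBV19 to TRBJ2-5: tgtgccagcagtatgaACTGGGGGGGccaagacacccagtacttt
TRBV29 to TRBJ2-1: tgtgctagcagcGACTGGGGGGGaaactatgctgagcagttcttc
The pair with no D named and the most cells had 166 and 61 cells, both in NOD 1:
TRBV16 to TRBJ1-4: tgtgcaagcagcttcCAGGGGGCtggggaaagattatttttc
TRBV3 to TRBJ1-3: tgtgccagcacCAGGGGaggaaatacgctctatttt
The rearrangement of 166 cells with no D named and that of 61 cells in NOD 2 named TRBD1 have the same 8 bases in capitals. A final set was chosen after its values were seen. Its members are a rearrangement named TRBD1 whose longest match, of 11 bases, was to TRBD2 (2 cells), a rearrangement with no D named and a 12-base match to TRBD2 (46 cells, 43 of them in NOD 2), and those with the most cells that retained a whole TRBD1 (12 cells) or a whole TRBD2 (6 cells):
TRBV17 to TRBJ2-5: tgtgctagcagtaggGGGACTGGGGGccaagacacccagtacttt
TRBV31 to TRBJ2-1: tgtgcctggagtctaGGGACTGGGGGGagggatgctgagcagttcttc
TRBV20 to TRBJ1-2: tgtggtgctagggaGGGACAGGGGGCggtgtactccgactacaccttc
TRBV19 to TRBJ2-1: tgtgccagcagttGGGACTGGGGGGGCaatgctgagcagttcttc

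Rearrangements of the J1 cluster carried TRBD1 wherever they carried a named D, with 7 exceptions, whereas those of the J2 cluster carried either D. Among J1 rearrangements the share named TRBD1 was 22.8% in NOD 1, 19.7% in NOD 2, 19.4% in Tet2KO NOD 1 and 20.2% in Tet2KO NOD 2, a mean of 20.5% ± 1.55 (SD, n = 4), or 607 of 2848 in all. TRBD2 was named in 7 of the 2848, a mean share of 0.337%. The rest, 79.2% on average, had no named D. The Wilson 95% intervals of the TRBD1 share in the J1 cluster overlapped between libraries, from 20.7 to 25.0% in NOD 1 to 15.5 to 23.9% in Tet2KO NOD 1.

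Among J2 rearrangements TRBD1 was named in 12.9%, 11.3%, 13.9% and 14.0% in the same order of libraries, a mean of 13.0% ± 1.25 (SD, n = 4), or 731 of 5714. TRBD2 was named in 11.2%, 13.2%, 10.8% and 12.0%, a mean of 11.8% ± 1.05 (SD, n = 4), or 670 of 5714. The upstream D was therefore named about as often as the downstream D in the cluster that lies beyond both. TRBD2 minus TRBD1 was -1.68, 1.84, -3.17 and -1.94 percentage points, so that TRBD2 led in NOD 2 alone, and the mean of -1.24 ± 2.15 (SD, n = 4) did not differ from 0 by an exact two-sided sign-flip permutation test (p = 0.375, where 0.125 is the smallest p that 4 libraries allow). The share named TRBD1 was higher in J1 than in J2 rearrangements by 9.89, 8.34, 5.43 and 6.22 points, which is 4 of 4 libraries (mean 7.47 ± 2.03 SD, exact sign-flip p = 0.125).

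**Figure D1:**
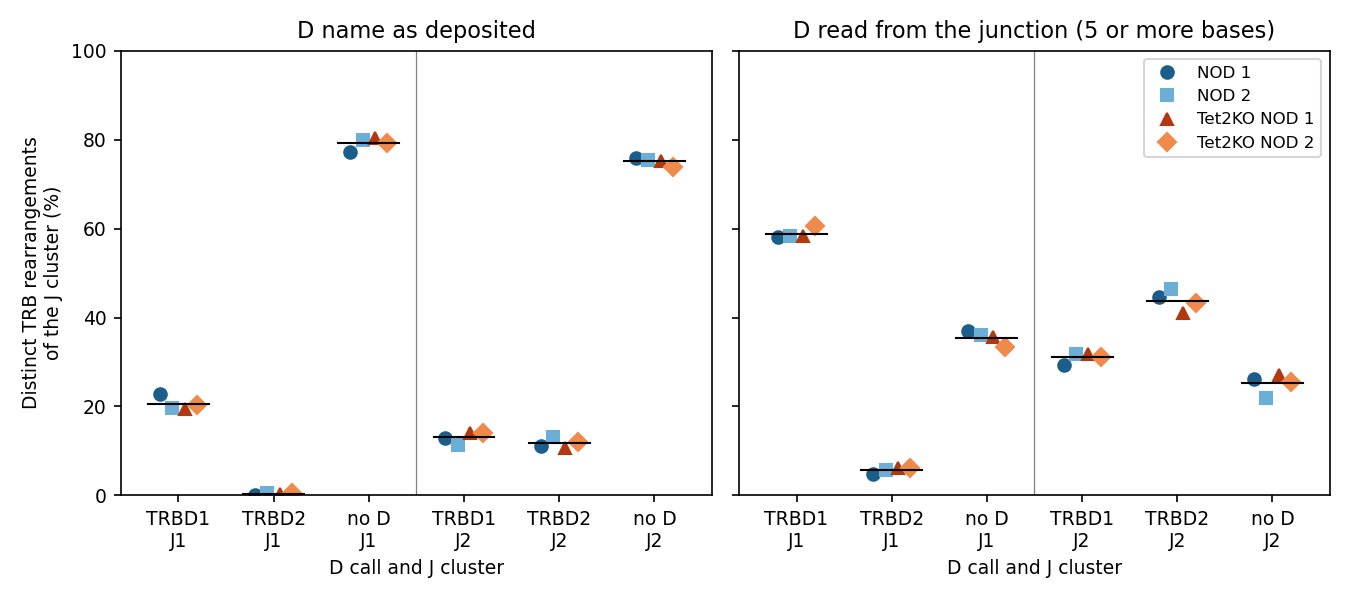
Share of distinct TRB rearrangements of each J cluster (y axis, percent) by D call (x axis), as deposited on the left and as read from the junction on the right, with a symbol for each of the 4 libraries and a bar at their mean. As deposited, no D was named in 79.2% of J1 and 75.2% of J2 rearrangements, and read from the junction with 5 or more matching bases these shares were 35.5% and 25.2%.

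Most rearrangements thus had no D name although a D is part of normal assembly, so the D was also read directly from the junction. For 8311 of the 8562 rearrangements (97.1%) the germline ends of V and J were found in the CDR3, and the bases between them were searched for the longest exact run shared with TRBD1 or TRBD2. The remaining 251 used TRBV10, for which no germline end was found. A call needed 5 bases or more, and ties counted as no D. Bases that a D shares with the V or J end are given to V or J by this reading, which shortens some matches.

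By this reading, TRBD1 was found in 58.2%, 58.3%, 58.3% and 60.5% of J1 rearrangements (mean 58.8% ± 1.14 SD, n = 4) and TRBD2 in 4.89%, 5.64%, 6.21% and 6.05% (mean 5.70% ± 0.590). TRBD2 lies downstream of the J1 cluster and is not joined to it by deletion, so the latter share is the level of TRBD2 matches in a cluster that deletion does not supply with TRBD2. In the J2 cluster TRBD1 was found in 29.2%, 31.7%, 31.9% and 31.2% (mean 31.0% ± 1.20) and TRBD2 in 44.5%, 46.3%, 41.1% and 43.2% (mean 43.8% ± 2.20). TRBD2 led TRBD1 in the J2 cluster in 4 of 4 libraries, by 15.3, 14.6, 9.25 and 12.0 points (mean 12.8 ± 2.76 SD, exact sign-flip p = 0.125). The order of the D segments in the J2 cluster was therefore turned by how the D was called. With matches required to cover the base at position 6, an alternative chosen after seeing the data, the lead of TRBD2 was 7.57 points and TRBD2 stood at 4.29% of J1 and 40.2% of J2 rearrangements.

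TRBD1 read from the junction was joined to a J1 segment in 51.1%, 46.4%, 46.8% and 49.9% of cases (mean 48.6% ± 2.31 SD, n = 4), 1633 rearrangements against 1680 with a J2 segment. As deposited the share was 47.8%, 44.8%, 39.9% and 41.9% (mean 43.6% ± 3.45). TRBD1 was thus found with the distant cluster about as often as with the near one.

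The deposited name depended on the length of the match, and on which D it matched. Where the longest match was to TRBD1, the deposited name was TRBD1 in 4.46% of 1390 rearrangements matching 5 to 6 bases, in 30.8% of 1067 matching 7 to 8 bases, in 84.3% of 415 matching 9 bases and in 98.6% of 69 matching 12 bases. Where the longest match was to TRBD2, the deposited name was TRBD2 in 4.74% of 886 matching 7 to 8 bases, in 16.95% of 348 matching 9, in 41.9% of 346 matching 10, in 54.0% of 250 matching 11 and in 67.0% of 182 matching 12. All 76 matches of 13 bases and all 55 of 14 bases to TRBD2 were named TRBD2. Over matches of 9 bases or more, 743 of 856 to TRBD1 (86.8%) were named TRBD1, while of 1257 to TRBD2 592 (47.1%) were named TRBD2, 87 (6.92%) TRBD1 and 578 (46.0%) had no D name. By library, matches of 9 bases or more were named after the D they matched in 88.8%, 82.8%, 84.4% and 88.3% for TRBD1 and in 45.7%, 52.1%, 45.3% and 44.9% for TRBD2. The gap of 39.1 points ± 5.90 (SD, n = 4) was above 0 in 4 of 4 libraries (exact sign-flip p = 0.125, a test chosen after the values were seen). At each length from 9 to 12 bases a smaller share of TRBD2 than of TRBD1 matches bore its name, as the 46-cell TRBV31 to TRBJ2-1 sequence above shows with 12 matching bases and no name.

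**Figure D2:**
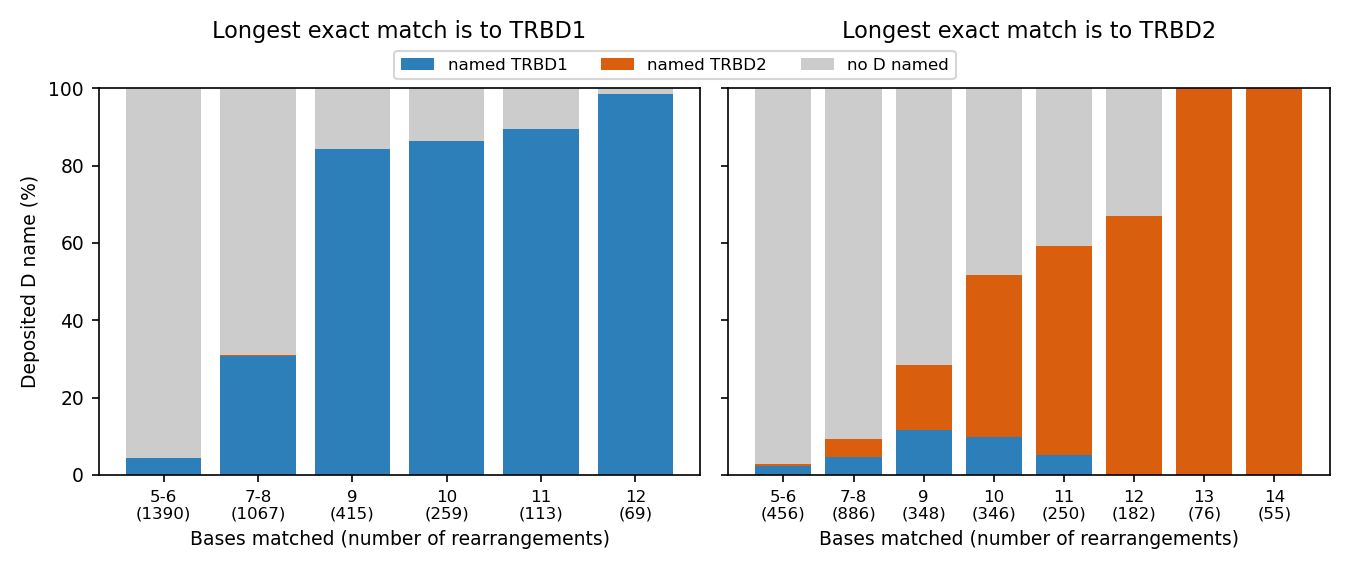
Deposited D name (y axis, percent of rearrangements, stacked bars) by the number of bases of the longest exact match (x axis, with the number of rearrangements in brackets), for matches to TRBD1 on the left and to TRBD2 on the right, over the 4 libraries. At 9 bases, 84.3% of TRBD1 matches and 16.95% of TRBD2 matches bore the name of the D matched.

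Names that were given mostly matched the junction, with an exception in the J2 cluster. Of 594 J1 rearrangements named TRBD1, 575 (96.8%) had their longest match to TRBD1 and 7 (1.18%) to TRBD2. Of 634 J2 rearrangements named TRBD2, 633 (99.8%) had it to TRBD2. Of 710 J2 rearrangements named TRBD1, 559 (78.7%) had it to TRBD1 and 131 (18.5%) to TRBD2. By library the latter share was 17.2%, 18.0%, 19.6% and 22.3% in the J2 cluster, against 1.52%, 0.820%, 1.52% and 0% in the J1 cluster, higher in J2 in 4 of 4 libraries (mean difference 18.3 points ± 2.85 SD, exact sign-flip p = 0.125, also chosen after the values were seen). The J2 cluster held 2449 rearrangements read as TRBD2, of which 131 were named TRBD1, and the J1 cluster 150, of which 7 were. The shares above depend on these numbers of TRBD2 matches. Their difference therefore does not show that TRBD2 matches were named less accurately in the J2 cluster. With the position 6 base required the 131 became 116. Of 4177 J2 rearrangements with no D name, 1685 (40.3%) read as TRBD2 and 1121 (26.8%) as TRBD1, and of 2189 such J1 rearrangements 1056 (48.2%) read as TRBD1 and 139 (6.35%) as TRBD2. A whole TRBD1 was kept in 31 J1 and 38 J2 rearrangements, of which 30 and 38 were named TRBD1. A whole TRBD2 was kept in 55 J2 rearrangements, all named TRBD2, and in 0 of 2790 J1 rearrangements, which allows a share of up to 0.108%.

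The 7 J1 rearrangements named TRBD2 are the combination that the order of the locus does not give by deletion. They used TRBJ1-3 in 3 cases, TRBJ1-6 in 2, and TRBJ1-1 and TRBJ1-5 in 1 each, and came from all 4 libraries (1, 3, 1 and 2). The longest match to TRBD2 had 5 to 10 bases in them. It exceeded the match to TRBD1 in 4, fell short of it in 2 and tied in 1. With the position 6 base required, 2 of the 7 still read as TRBD2, a TRBV31 to TRBJ1-6 rearrangement with 9 matching bases in 4 cells of NOD 1 and a TRBV19 to TRBJ1-3 rearrangement with 10 in 1 cell of NOD 2.

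Mean D use differed between the J segments of a cluster, mostly with overlapping libraries. As deposited, TRBD1 ranged over the J1 segments from a mean of 17.4% ± 2.24 (SD, n = 4) with TRBJ1-3 to 24.7% ± 8.19 with TRBJ1-5, and read from the junction from 50.1% ± 8.05 with TRBJ1-3 to 65.5% ± 7.13 with TRBJ1-5. TRBJ1-3 and TRBJ1-5 were the end members under both readings. Their libraries overlapped as deposited, with 16.7% in Tet2KO NOD 2 for TRBJ1-5 against up to 20% for TRBJ1-3, and did not overlap when read from the junction, at 40.4 to 57.9% for TRBJ1-3 and 58.6 to 75% for TRBJ1-5. Both segments were picked as the extremes of these data, which favours a gap. In Tet2KO NOD 2 they stood close together, at 57.9% of 57 and 58.6% of 29 rearrangements. In between, TRBJ1-1 stood at 18.9%, TRBJ1-6 at 19.6%, TRBJ1-2 at 21.3% and TRBJ1-4 at 23.0% as deposited.

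Among J2 rearrangements with a named D, the share with TRBD2 was highest with TRBJ2-1, at 52.0%, 56.7%, 57.6% and 60.0% (mean 56.6% ± 3.35 SD, n = 4), the J segment nearest to TRBD2. It was lowest with TRBJ2-7, the farthest, at 42.3%, 55.3%, 29.4% and 41.1% (mean 42.0% ± 10.6). TRBJ2-2 stood at 52.3% ± 10.8, TRBJ2-3 at 48.8% ± 6.08, TRBJ2-5 at 45.8% ± 9.52 and TRBJ2-4 at 45.0% ± 7.63. The libraries of TRBJ2-1 and TRBJ2-7 overlapped through NOD 2. The order was not kept when the D was read from the junction, where the highest mean was 62.0% ± 5.68 with TRBJ2-3, the lowest 54.7% ± 9.87 with TRBJ2-2, and TRBJ2-1 (59.0% ± 2.20) and TRBJ2-7 (57.05% ± 4.04) lay between them.

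**Figure D3:**
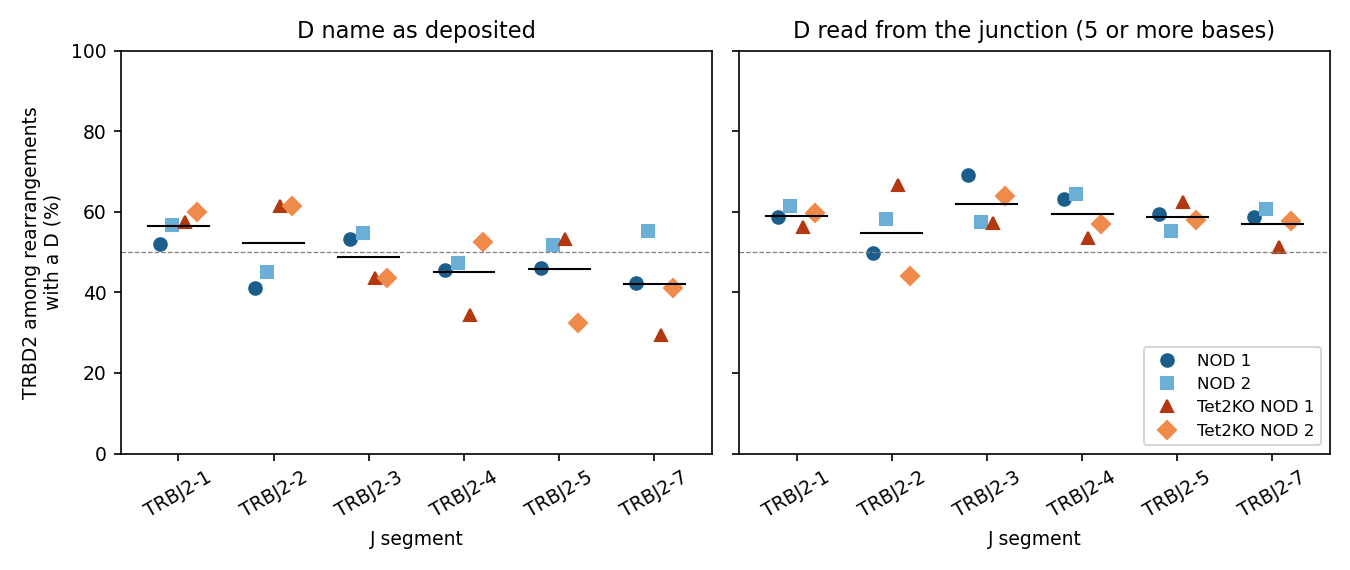
TRBD2 as a percent of rearrangements with a D call (y axis) for each J2 segment in the order of the locus (x axis), as deposited on the left and as read from the junction on the right, with a symbol per library, a bar at the mean and a dashed line at 50%. The means ran from 42.0 to 56.6% as deposited and from 54.7 to 62.0% as read from the junction.

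The D name followed CDR3 length, which was counted here with both conserved end residues. Mean length was 13.8 amino acids ± 0.0331 (SD, n = 4) with no D named, 14.5 ± 0.0633 with TRBD1 and 15.3 ± 0.161 with TRBD2. Rearrangements with a named D were longer than those without by 0.863, 0.910, 1.12 and 1.02 amino acids, in 4 of 4 libraries (mean 0.977 ± 0.113 SD, exact sign-flip p = 0.125). Between the V and J germline ends lay 9.19 bases with no D named, 12.6 with TRBD1 and 15.02 with TRBD2. With the D read from the junction, the lengths were 13.2 amino acids with no D, 14.1 with TRBD1 and 14.7 with TRBD2. The order of the classes was the same. The junction reading needs a minimum match between the V and J ends, and the deposited name was rare at short matches. Both calls therefore favour longer junctions among the named rearrangements. The direction of the difference, its sign-flip p and the no-D class being shortest cannot be separated from the call.

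In the J2 cluster, where both D segments can be compared, rearrangements named TRBD2 were longer than those named TRBD1 by 0.890, 0.915, 1.15 and 1.08 amino acids (mean 1.01 ± 0.124 SD, 4 of 4 libraries, exact sign-flip p = 0.125). With the D read from the junction the difference was 0.846 ± 0.124. The germline TRBD2 is longer than TRBD1 by 2 bases. The deposited name also went with longer matches in the J2 cluster for TRBD2 (median 11 bases) than for TRBD1 (median 9). The part of segment length or of the call in this difference was not tested.

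TRBD2 was named in 0 of 365 rearrangements with 11 or fewer amino acids, which allows a share of up to 0.822%, and in 4 of 935 with 12. Its share was 5.31% ± 1.57 (SD, n = 4) at 14 amino acids, 11.3% ± 1.45 at 15, 19.5% ± 3.87 at 16 and 32.1% ± 3.77 at 17 or more. The share of TRBD1 went from 4.79% ± 1.69 at 11 or fewer through 15.2% ± 0.306 at 14 to 21.4% ± 1.39 at 15 and then stayed near that level, with 22.5% ± 4.82 at 17 or more. The share with no D name was 95.2% in the shortest class and 45.4% in the longest. Of 637 rearrangements named TRBD2 with a longest match to it of 5 bases or more, 533 matched 10 or more. Read from the junction, TRBD2 stood at 7.12% ± 3.48 at 11 or fewer amino acids, 10.7% ± 3.66 at 12 and 63.4% ± 4.08 at 17 or more. The part of the call in the low TRBD2 shares and the high no-D shares at short lengths was not tested. In NOD 2 the TRBD1 share at 16 amino acids, 10.8%, lay below the 21.3 to 23.1% of the other libraries.

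**Figure D4:**
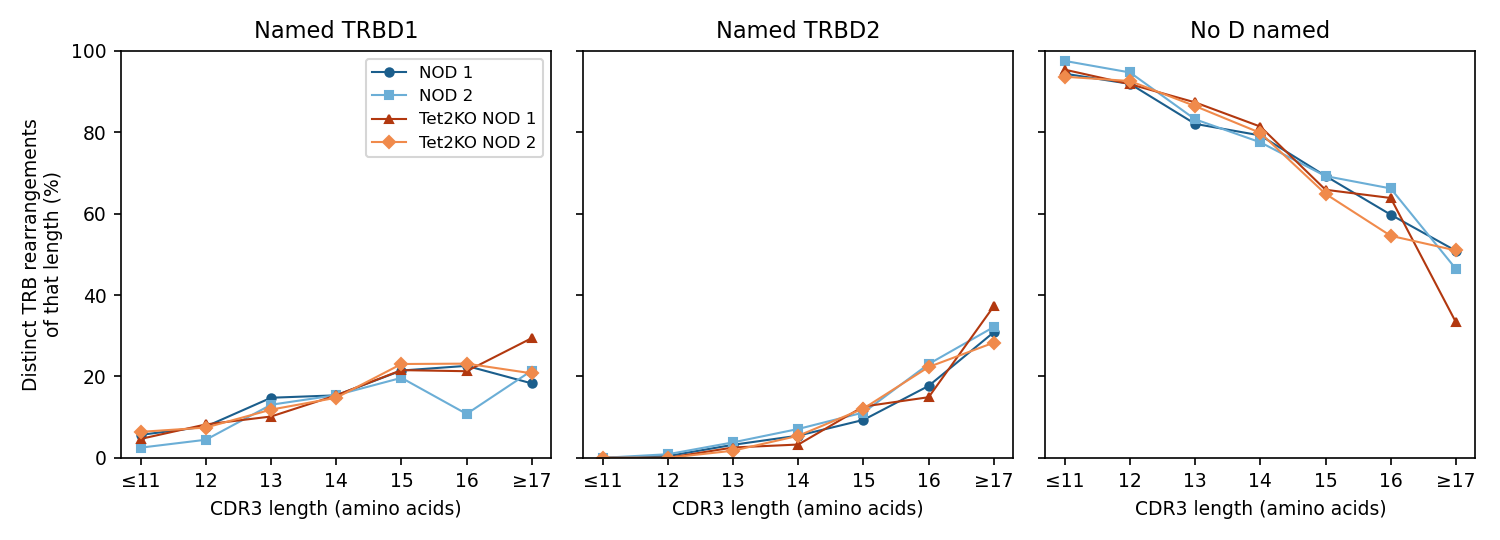
Share of distinct TRB rearrangements (y axis, percent) named TRBD1 (left), named TRBD2 (middle) or with no D named (right) at each CDR3 length (x axis, amino acids), with a line for each of the 4 libraries. TRBD2 was at 0% in every library at 11 or fewer amino acids and at 28.3 to 37.3% at 17 or more.

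By cluster, the length pattern of TRBD1 divided. In J1 rearrangements TRBD1 was named in 5.24% at 11 or fewer amino acids, 17.3% at 14, 32.5% at 15 and 58.9% at 17 or more, the last of 77 rearrangements. In J2 rearrangements it was named in 4.90%, 14.1%, 16.3% and 12.7% at the same lengths, while TRBD2 took 0% (of 253, which allows up to 1.19%), 7.94%, 16.3% and 40.9%. As read from the junction, TRBD1 of the J2 cluster was at its highest, 37.1% ± 5.15, at 13 amino acids and at its lowest, 16.8% ± 2.00, at 17 or more, where TRBD2 stood at 79.4% ± 3.12. In the J2 cluster TRBD1 thus had the higher mean share up to 14 amino acids as deposited and up to 13 as read from the junction (37.1% against 28.97% for TRBD2), and TRBD2 had the higher mean share at 16 and above under both readings.

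The D segments were trimmed in most junctions. The mean match, among rearrangements with a unique match of 5 bases or more, was 7.25 bases for TRBD1 with J1 (1624 rearrangements), 7.22 for TRBD1 with J2 (1677) and 8.91 for TRBD2 with J2 (2324). Between the V end and the D match lay 1.98, 1.92 and 1.91 bases, and between the D match and the J end 1.74, 1.80 and 1.97. TRBD1 thus kept 7.25 and 7.22 bases with the near and the distant J cluster, and the SD over libraries of these 9 means was at most 0.128 bases. Loops of TRBD1 with J1 had 14.3 amino acids and those of TRBD1 with J2 had 13.9, and the germline J part of the CDR3 was longer with J1 (18.6 bases) than with J2 (17.4 bases).

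All 3 reading frames of each D were in use. In TRBD1 the frame that starts a codon at D base 1 reads glycine-threonine-glycine-glycine, that at base 2 glycine-glutamine-glycine and that at base 3 aspartate-arginine-glycine. With J1 these made up 37.2% ± 2.08, 34.6% ± 3.23 and 28.2% ± 2.71 (SD, n = 4) of TRBD1 rearrangements, and with J2 32.6% ± 2.59, 32.6% ± 3.07 and 34.7% ± 4.12. The base 3 frame in the J1 cluster lay between 24.9 and 31.3% in the libraries, and base 1 lay above it in each library. In TRBD2 with J2 the frames glycine-threonine-glycine-glycine, glycine-leucine-glycine-glycine and aspartate-tryptophan-glycine-glycine made up 32.8% ± 1.71, 31.6% ± 1.55 and 35.6% ± 3.18, and no frame of TRBD2 led in all libraries.

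**Figure D5:**
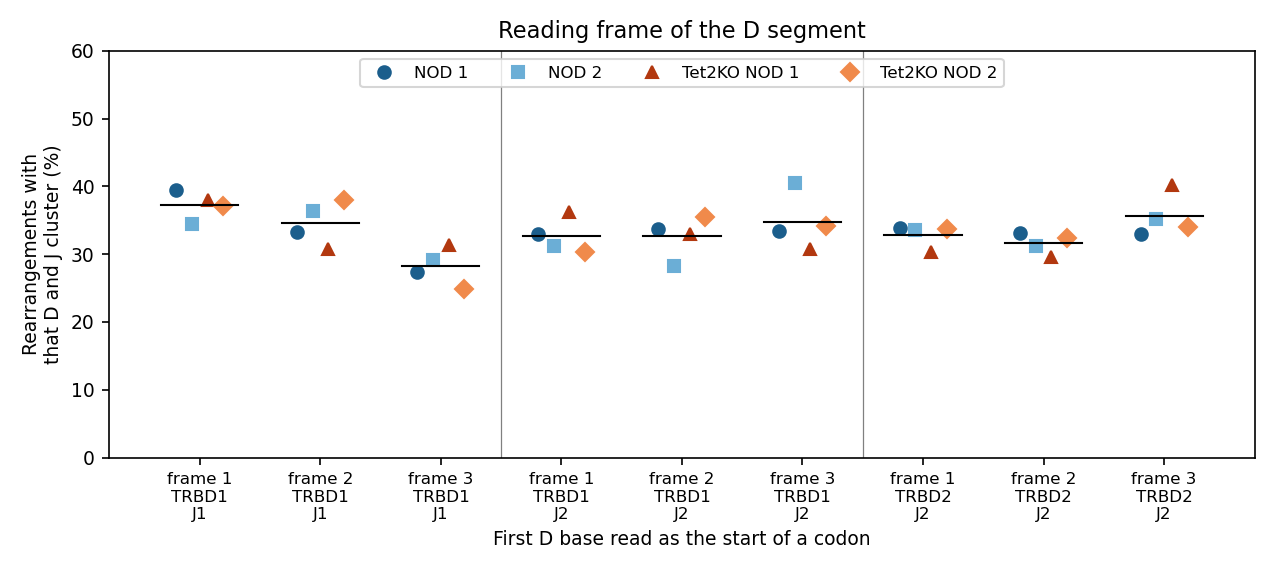
Share of rearrangements (y axis, percent) that read the D segment from D base 1, 2 or 3 (frames 1 to 3, x axis), for TRBD1 with J1, TRBD1 with J2 and TRBD2 with J2, with a symbol for each of the 4 libraries and a bar at the mean. Frame 3 of TRBD1 with J1 had the lowest mean, 28.2%, and the other 8 means lay between 31.6 and 37.2%.

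The share with any D named also varied with the V segment. Among V segments with at least 100 rearrangements it ran from 16.9% ± 8.46 (SD, n = 4) with TRBV2 and 17.5% ± 1.00 with TRBV15 to 27.8% ± 3.35 with TRBV13-1 and 28.2% ± 9.27 with TRBV31. For TRBV2 the share was 23.2% and 25.0% in the NOD libraries and 8% and 11.4% in those of Tet2KO NOD, so its place as the lowest rested on Tet2KO NOD. In both NOD libraries TRBV15 (18.6% and 16.2%) and TRBV13-2 (13.5% and 18.5%) stood lower than TRBV2, as did TRBV1, TRBV16, TRBV19 and TRBV5. The place of TRBV31 as the highest rested on 41.9% in Tet2KO NOD 1. It stood at 24.4% in NOD 1, 21.7% in NOD 2 and 24.6% in Tet2KO NOD 2. The libraries of TRBV2 (8 to 25.0%) and TRBV31 (21.7 to 41.9%) overlapped, whereas those of TRBV15 (16.2 to 18.6%) and TRBV13-1 (25.0 to 32.4%) did not. With the D read from the junction, TRBV15 and TRBV13-1 had a D in 69.6% and 71.3% of rearrangements.

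The share of rearrangements found in 2 or more cells overlapped between D classes. It was 15.1% ± 0.967 (SD, n = 4) for TRBD1 with J1, 14.1% ± 3.88 for TRBD1 with J2 and 14.7% ± 4.23 for TRBD2 with J2, against 16.1% ± 3.88 and 16.7% ± 2.23 with no D named in J1 and J2. The median UMIs per contig were 10.5, 11 and 9.25 as means over libraries in the same order and 11.8 and 10.5 with no D. The D name was the same in every contig of a rearrangement: of 1312 rearrangements with over 1 contig 0 had over 1 D name (up to 0.229% allowed), and of 65 found in over 1 library 0 did (up to 4.62% allowed). These contigs have the same V, J and CDR3 nucleotides by definition, so the counts do not measure how reliable the D names are.

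The C name and the J cluster were of the same block in every contig in which a C was named. Both names came from the deposited annotation, and whether it names C independently of J was not checked. The counts and limits below therefore apply to names, and cannot show how often transcripts mix the blocks. A J1 segment was followed by TRBC1 and a J2 segment by TRBC2 in 7058 of 7058 contigs of NOD 1, 2948 of 2948 of NOD 2, 1968 of 1968 of Tet2KO NOD 1 and 1689 of 1689 of Tet2KO NOD 2. Over all libraries this was 13663 of 13663, and 0 mismatches allow a share of up to 0.0220%. Contigs of 1 rearrangement are not independent, and over distinct rearrangements the count was 8530 of 8530, which allows up to 0.0352%. Among 1688 TRB contigs of called cells that were not productive but had a J segment and high confidence, 1546 of 1546 with a C name also paired J and C of the same block, which allows up to 0.194% of mismatches.

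A C name was missing in 18, 14, 7 and 7 productive contigs, 0.336% in all. Of these 46, 28 had a J1 and 18 a J2 segment. They had a median of 2 UMIs and 490 bases, against 11 UMIs for both C segments and 552 bases for TRBC1 and 544 for TRBC2. Contigs without a C name thus rested on few molecules. They were not shorter in every library: the 18 of NOD 1 had a median of 545.5 bases, against 552 for TRBC1 and 546 for TRBC2 there. Among the contigs that were not productive the C name was missing in 8.41%.

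TRBC1 made up 34.1% (Wilson 95% interval 32.7 to 35.5) of the rearrangements with a named C in NOD 1, 31.6% (29.6 to 33.7) in NOD 2, 32.2% (29.5 to 35.1) in Tet2KO NOD 1 and 33.1% (30.5 to 35.9) in Tet2KO NOD 2. The remainder was TRBC2, so the downstream block supplied about 2 of every 3 beta chains in each library. Counted by contig, with clone sizes included, TRBC1 stood at 34.5%, 29.4%, 29.6% and 35.8%. Its range over libraries was wider by contig, and NOD 2 and Tet2KO NOD 1 were the low libraries.

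Of 675 distinct rearrangements that were not productive but had a CDR3, 35.1% used J1. TRBD1 was named in 22.8% of the 237 with J1 and 14.8% of the 438 with J2, and TRBD2 in 1 of the 237 and in 12.8% of the 438. By library the TRBD1 share was 16.04%, 32.8%, 26.5% and 21.2% with J1 and 18.0%, 8.57%, 12.7% and 16.1% with J2. It was thus lower with J1 in NOD 1, the library with the most such rearrangements (106 with J1), and higher with J1 in the other libraries, of which the smallest held 33 with J1. The difference was not tested.

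No D or C segment passed the test between the genotypes. Of all 38 TRB segment names tested with edgeR's quasi-likelihood test on counts of distinct rearrangements, 0 (0%) passed a Benjamini-Hochberg adjusted p of 0.05. At an unadjusted p under 0.05 edgeR gave 1 name, which is no D or C segment, and DESeq2 gave 0 calls and 0 at the unadjusted level. TRBD1 was named in 16.3% and 14.0% of rearrangements of the NOD libraries and 15.7% and 16.1% of the Tet2KO NOD libraries, a log2 fold change of 0.043 (SE 0.11, edgeR adjusted p = 0.994). TRBD2 was named in 7.40% and 9.11% against 7.38% and 8.20% (log2 fold change -0.039, SE 0.16). The log2 fold change was -0.019 (SE 0.059) for TRBC1 and 0.0080 (SE 0.027) for TRBC2, and edgeR's adjusted p was 0.994 for each of these 4 segments. The genotypes overlapped for all 4, against 26.3% of the 38 names that did not overlap.

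The classes of J segment and D call showed 0 of 29 calls (0%) by edgeR, 0 at an unadjusted p under 0.05 and 0 by DESeq2. The genotypes did not overlap in 5 of them (17.2%). TRBJ2-7 with TRBD2, the class with the smallest p, counted 93 and 63 rearrangements in the NOD libraries and 15 and 23 in those of Tet2KO NOD. Its log2 fold change was -0.53 (SE 0.29, edgeR adjusted p = 0.905, unadjusted p = 0.0735). The common dispersion that edgeR estimated over these classes was 9.77e-05, so its SEs rest mostly on counting error. The other classes without overlap were TRBJ2-3 with no D, TRBJ2-2 with TRBD1, TRBJ2-4 with TRBD2 and TRBJ1-3 with no D, with log2 fold changes of 0.14, -0.62, 0.51 and -0.13.

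By cluster, the share of J2 rearrangements named TRBD1 averaged 12.1% ± 1.11 over the NOD libraries and 14.0% ± 0.0414 over those of Tet2KO NOD (SD, n = 2 each). The groups did not overlap, and the difference of 1.86 points had an exact permutation p of 0.333, the smallest that the 6 assignments of 4 libraries allow. Counted by contig the difference was -0.0961 points, and with the D read from the junction the groups overlapped, at 29.2% and 31.7% against 31.9% and 31.2% (exact permutation p = 0.667). The lead of TRBD1 in J1 over J2 differed by -3.29 points (Tet2KO NOD minus NOD), from the values by library given above, without overlap (exact permutation p = 0.333). With the D read from the junction that difference was 0.106 points (exact permutation p = 1). The lengthening with a named D was greater in Tet2KO NOD by 0.181 amino acids and that of TRBD2 over TRBD1 in the J2 cluster by 0.209, both without overlap (exact permutation p = 0.333 each). The share of J1 rearrangements named TRBD1 was lower in Tet2KO NOD by 1.43 points (exact permutation p = 0.667), that of J2 rearrangements named TRBD2 was lower by 0.776 points (p = 0.667), and the TRBC1 share differed by -0.158 points (exact permutation p = 1), with overlapping groups in each. Without NOD 1 the difference of TRBD1 in the J1 cluster was 0.132 points, and without NOD 2 that of TRBD2 in the J2 cluster was 0.198 points, so these directions rested on 1 library each. The TRBC1 difference was 1.06 points without NOD 1 and 0.287 points without Tet2KO NOD 1. Read from the junction, TRBD2 of the J2 cluster averaged 45.4% ± 1.26 over the NOD libraries and 42.2% ± 1.51 over those of Tet2KO NOD, a difference of -3.26 points without overlap (exact permutation p = 0.333).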

How the data were processed

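Receptor libraries of 4 pools of islets were analysed. Per the file headers, the authors deposited for each contig its counts of reads and of UMIs, its length in bases, its V, D, J and C names and its CDR3. Cell Ranger 7.0.1 with GRCm38 (mm10) is named in the submitters' processing notes, and the segment reference behind the names was not found in the sources. The protocol in the labels describes nuclei for ATAC libraries and gives no receptor chemistry.

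Contigs were grouped by identical V, J and CDR3 nucleotides within a library. Germline ends of V and J and the D segments came from the GRCm38 sequence with its GENCODE annotation. Counts of distinct rearrangements were tested with edgeR 4.0.16 in R 4.3.3 (quasi-likelihood test, library size the number of rearrangements, features with at least 10 in at least 2 libraries, Benjamini-Hochberg over all features), with DESeq2 1.42.0 as an alternative. Shares were compared between genotypes by exact two-sided permutation over 6 assignments and within libraries by exact two-sided sign-flip over 4 libraries. Programs were checked on simulated data. Python 3.11.15 and pandas 2.3.3 were used.

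All members, every J segment by D call and the 2 rearrangements with the most cells in each D class were named by rule. Members, lists and tests were chosen with earlier results of these data known. Alternatives were counting contigs, at least 3 UMIs, leaving out cells with over 1 TRB or shared barcodes, leaving out each library, D read with a minimum of 4, 5 or 7 bases, TMM factors, no filter and the set number as a block.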

Additional observations from a re-analysis of the deposited data

How the results depend on the processing

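Read from the junction with a minimum of 5, 4 or 7 bases, or with the position 6 base covered, TRBD1 had a mean share of 58.8, 64.5, 33.8 and 60.0% of J1 and 31.0, 33.6, 17.9 and 32.6% of J2 rearrangements, and TRBD2 43.8, 45.3, 36.9 and 40.2% of J2. TRBD2 minus TRBD1 in the J2 cluster, below 0 as deposited, was then 12.8, 11.7, 19.1 and 7.57 points. The lengthening with a D call was 1.11 amino acids by contig and 1.17, 1.14 and 1.15 with minimums of 5, 4 and 7 bases. A higher minimum leaves fewer calls by construction, and any minimum favours longer junctions among those called.

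Differences between genotypes changed direction as follows, and the cause was not tested. For TRBD1 in J1, Tet2KO NOD minus NOD was 1.18, 2.38, 0.0258 and 0.610 points under the same 4 readings. By contig, TRBD1 in J2 was at -0.0961, TRBD2 in J2 at 0.670, TRBC1 at 0.763 and the genotype difference of TRBD2 minus TRBD1 at 0.766 points. Leaving out each library in turn gave -2.98 to 0.132 points for TRBD1 in J1, 1.08 to 2.65 for TRBD1 in J2, -1.75 to 0.198 for TRBD2 in J2, -1.38 to 1.06 for TRBC1 and -4.39 to -0.877 for TRBD2 minus TRBD1. The log2 fold changes by contig were -0.036 for TRBD1, 0.084 for TRBD2, 0.031 for TRBC1 and -0.016 for TRBC2, and that of TRBD2 was 0.0068 with at least 3 UMIs. Leaving out each library gave -0.034 to 0.18 for TRBD1, -0.22 to 0.076 for TRBD2, -0.061 to 0.051 for TRBC1 and -0.021 to 0.028 for TRBC2.

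The segment test made 1 call with at least 3 UMIs and 1 with set numbers taken as a replicate block, in both cases TRBV2. The J-by-D test made 0 calls with that block by edgeR (2 at an unadjusted p under 0.05). The labels link libraries by a set number only, so it was not taken as a pairing. Over the 29 classes the deviations of same-numbered libraries correlated at 0.415 and those of crossed libraries at -0.415. With 2 libraries per group, the size of this value is the same for every pair. Each sequence shown above that was found in 2 libraries was in same-numbered ones. Whether the sets are linked was not tested. Agreement of J with C, the lead of TRBD1 in J1 over J2 and the lengthening with TRBD2 in J2 kept their direction under every alternative run. With 2 pools per genotype and 1071 to 4336 rearrangements per library, differences of a few points could not be told from the spread of pools.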
